A study of Mus musculus with 15 samples.

Results

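The cytoplasmic ribosomal proteins are the roughly equimolar set of proteins that build the large (RPL) and small (RPS) subunits of the ribosome. Their genes were taken from the gene-level count tables of a mouse small-intestinal organoid study by symbol, as every row named Rpl or Rps followed by a number, with an optional final a, l or x, plus Rplp0, Rplp1, Rplp2 and Rpsa. This gave 83 of the 78298 listed genes, of which 79 had enough counts to be tested (47 of the large and 32 of the small subunit). The 4 that were not tested were Rpl3l, Rpl10l, Rpl39l and Rpl32l. Rpl6l and Rpl32l match the symbol rule but are annotated as pseudogenes.

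Ribosomes consume much of the transcription and translation of a growing cell, and ribosomal protein mRNAs are among its most abundant transcripts. Their mRNAs begin with a 5′ terminal oligopyrimidine (TOP) tract, a C followed by a run of pyrimidines, through which mTORC1 signalling controls their translation, while Myc family factors drive their transcription. In the small intestine, crypt stem and progenitor cells divide continuously and hold more ribosomes than the differentiated cells of the villus.

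Poly(A) RNA was sequenced from 15 libraries in 5 conditions of 3. All organoids had a wild-type C57BL/6J background and carried lentiviral transgenes under L30, a weak promoter taken from the ribosomal protein gene Rpl30, with antibiotic selection. The CTRL organoids, Halo-NLS, expressed a HaloTag with a nuclear localisation signal (L30prom_V5-Halo-GDGAGLIN-NLS_IRES_Puro) and were budding. The transcription factor SOX9 was overexpressed in 2 lines, as SOX9-Halo (L30prom_Sox9-GDGAGLIN-Halo-V5_IRES_Puro) and as SOX9-mEGFP (L30prom_Sox9-GDGAGLIN-mEGFP-V5_IRES_Puro). Each was sampled with budding morphology and again, after longer culture, as spheroids. The SOX9-Halo spheroids additionally carried L30prom_H2B-GDGAGLIN-mEGFP-V5_IRES_Zeo and the SOX9-mEGFP spheroids L30prom_H2B-GDGAGLIN-mScarletI-V5_IRES_Neo. Spheroid morphology, time in culture and the second transgene therefore cannot be told apart. Each condition was a single line, so the p-values below measure only the spread between 3 libraries of that line.

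Between 28062722 and 40559766 reads were counted on genes in each library. Sox9 was at 9.10 to 22.9 CPM (read counts scaled to library size, with TMM factors) in Halo-NLS and at 39.8 to 705 CPM in the 12 SOX9 libraries, with SOX9-Halo_budding replicate 1 the lowest of them. Epithelial markers were high in every condition, and the summed levels of the fibroblast, endothelial and neural and glial markers stayed at or below 3.30 CPM. Absorptive markers summed to at least 1144 CPM in every budding library and at most 372 CPM in every spheroid library, while fetal-like markers summed to at most 70.9 and at least 3285 CPM. Crypt stem markers summed to 147 to 429 CPM in Halo-NLS and 20.5 to 76.7 CPM in the spheroids, and secretory markers to 752 to 1522 and 0.536 to 66.8 CPM. Immune markers were at 3.47 to 9.59 CPM in Halo-NLS, at 2.58 to 5.57 CPM in the other budding libraries, at 12.7 to 19.7 CPM in SOX9-Halo_spheroid and at 36.3 to 43.5 CPM in SOX9-mEGFP_spheroid. The part of these cell types in the results was not tested. Xist, transcribed from the inactive X chromosome, was at 34.3 to 431 CPM in the 6 SOX9-Halo libraries and at most 0.186 CPM in the others. Halo-NLS replicate 3 stood apart, with 40375 genes counted at least once against 24214 to 34646 in the other libraries. Counts of genes called against Halo-NLS are also given without this replicate. In bulk RNA, fewer cells of a type and less of an mRNA per cell cannot be told apart.

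The ribosomal protein genes together held 8.83 to 14.5% of the counted reads in Halo-NLS and 6.34 to 10.8% in the SOX9 conditions. The 3 Halo-NLS libraries were at 10.8, 8.83 and 14.5% (replicates 1, 2 and 3; mean 11.4 ± 2.86%, SD, n = 3). SOX9-mEGFP_budding was at 8.05, 9.44 and 9.04% (8.84 ± 0.716%) and SOX9-Halo_budding at 9.81, 9.06 and 7.59% (8.82 ± 1.13%). SOX9-mEGFP_spheroid was at 8.77, 9.23 and 6.34% (8.11 ± 1.55%) and SOX9-Halo_spheroid at 10.8, 10.1 and 9.12% (9.99 ± 0.842%). Halo-NLS replicate 2 lay inside the range of every SOX9 condition except SOX9-Halo_spheroid, so on raw shares the controls overlapped the overexpressing organoids. Replicates 1 and 3 lay above all 12 SOX9 libraries, replicate 1 only narrowly.

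After TMM scaling, which corrects each library's total for its most deviant genes, the summed level was 103685 to 170781 CPM in Halo-NLS. It was at most 96755 CPM in the 9 SOX9 libraries other than SOX9-Halo_spheroid and reached 106945 CPM in the latter. The scaling factors were 0.850 to 0.882 in Halo-NLS and 0.944 to 1.14 in the SOX9 libraries, and so raised the controls relative to the rest. Leaving out Rps4l, which is described further on, Halo-NLS replicate 3 was the library with the highest level for 70 of 78 genes. SOX9-mEGFP_spheroid replicate 3 was the lowest for 54 and SOX9-Halo_budding replicate 3 for 19.

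**Figure D1:**
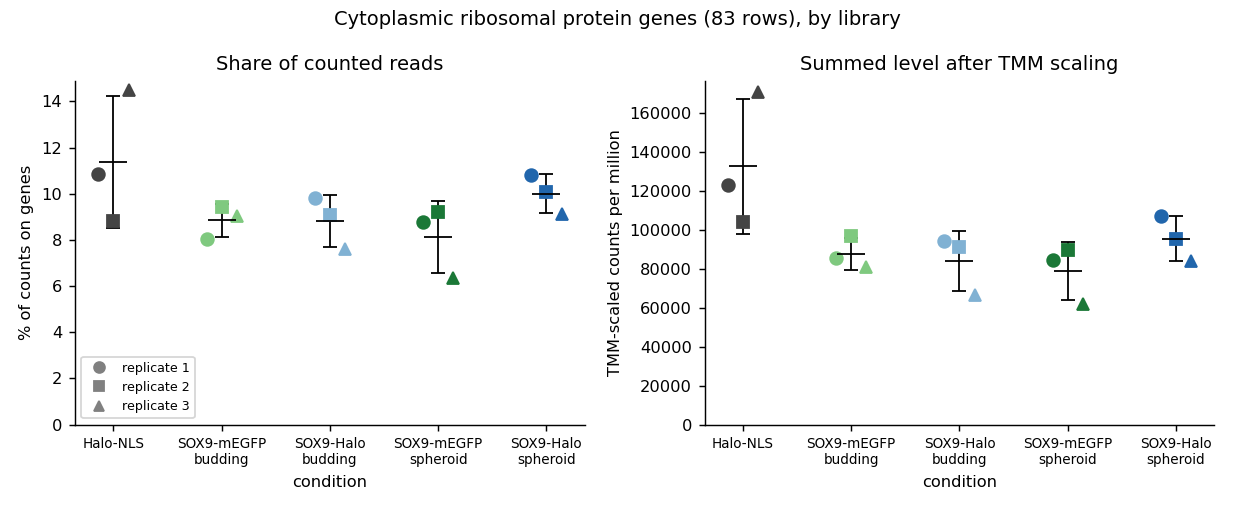
The left panel plots the percent of counted reads on the 83 ribosomal protein genes and the right panel their summed level in TMM-scaled CPM, for each library by condition. Symbols are replicates 1 to 3, and bars are mean ± SD of 3. Halo-NLS spans 8.83 to 14.5% and overlaps the SOX9 conditions on the left, whereas only SOX9-Halo_spheroid replicate 1 reaches the lowest control on the right.

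All 4 SOX9 conditions were then compared with Halo-NLS to ask how their ribosomal protein mRNAs differed from those of the controls. The 4 comparisons share the same 3 control libraries. Most ribosomal protein genes had lower fitted levels in each, and a fall passed the test most often in SOX9-mEGFP spheroids. In SOX9-mEGFP_spheroid, 60 of 79 genes fell and 0 rose at an adjusted p of at most 0.05 (quasi-likelihood test of edgeR, p-values adjusted by Benjamini-Hochberg over all genes tested), where 23.9% of the 17560 genes tested fell and 25.7% rose. None of the 79 rose at an unadjusted p of 0.05 either or by DESeq2. The median log2 fold change of the ribosomal protein genes was −0.76, against 0.03 for all genes.

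In SOX9-Halo_spheroid, 23 genes fell, a share close to the background of 25.7% lower. Only 1 rose, far below the background of 22.5% higher, and the median was −0.52. In SOX9-mEGFP_budding, 17 fell and 0 rose (background 5.95% lower, 8.89% higher) with a median of −0.60, and none rose at an unadjusted p of 0.05 or by DESeq2. In SOX9-Halo_budding, 35 fell and 1, Rps4l, was called higher (background 7.57% lower, 11.2% higher) with a median of −0.67. The fitted change was below 0 for 75, 72, 75 and 78 of the 79 genes, in the order SOX9-mEGFP_spheroid, SOX9-Halo_spheroid, SOX9-mEGFP_budding and SOX9-Halo_budding. A total of 31 of 79 genes were lower in each of the 12 SOX9 libraries than in each Halo-NLS library, where 5.85% of all genes were, and 0 were higher in each (5.32% of all genes). Taken comparison by comparison, 58, 37, 52 and 54 genes lay below all 3 controls in all 3 SOX9 libraries (27, 28.4, 15.4 and 14.9% of all genes), and 0, 2, 0 and 1 lay above (29.5, 26.5, 17.2 and 14.8%). The 1 above in SOX9-Halo_budding was Rps4l.

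The counts of genes called at an adjusted p of at most 0.05, unlike those without overlap, were taken again without single libraries. They rested in large part on Halo-NLS replicate 3. Without it, 32 genes fell in SOX9-mEGFP_spheroid, 2 in SOX9-Halo_spheroid, 0 in SOX9-mEGFP_budding and 1 in SOX9-Halo_budding. The background shares were then 19.5, 22.4, 1.48 and 2.88% lower and 21.6, 19.8, 3.41 and 4.67% higher, and the medians of the ribosomal protein genes were −0.54, −0.27, −0.38 and −0.44. Only in SOX9-mEGFP_spheroid did the share of ribosomal protein genes called lower stay above that of all genes. Other libraries also decided some counts. In SOX9-mEGFP_budding, 0, 2 and 1 genes fell without SOX9-mEGFP_budding replicates 1, 2 and 3, and 32 and 11 without Halo-NLS replicates 1 and 2. In SOX9-Halo_budding, 5 and 0 fell without SOX9-Halo_budding replicates 1 and 3. In SOX9-Halo_spheroid, 43 fell without Halo-NLS replicate 2, and 11 and 3 without SOX9-Halo_spheroid replicates 2 and 3. Scaled by library size alone, 35, 3, 2 and 2 genes fell in the 4 comparisons, in the first order, against 17, 20, 2.31 and 2.81% of all genes.

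**Figure D2:**
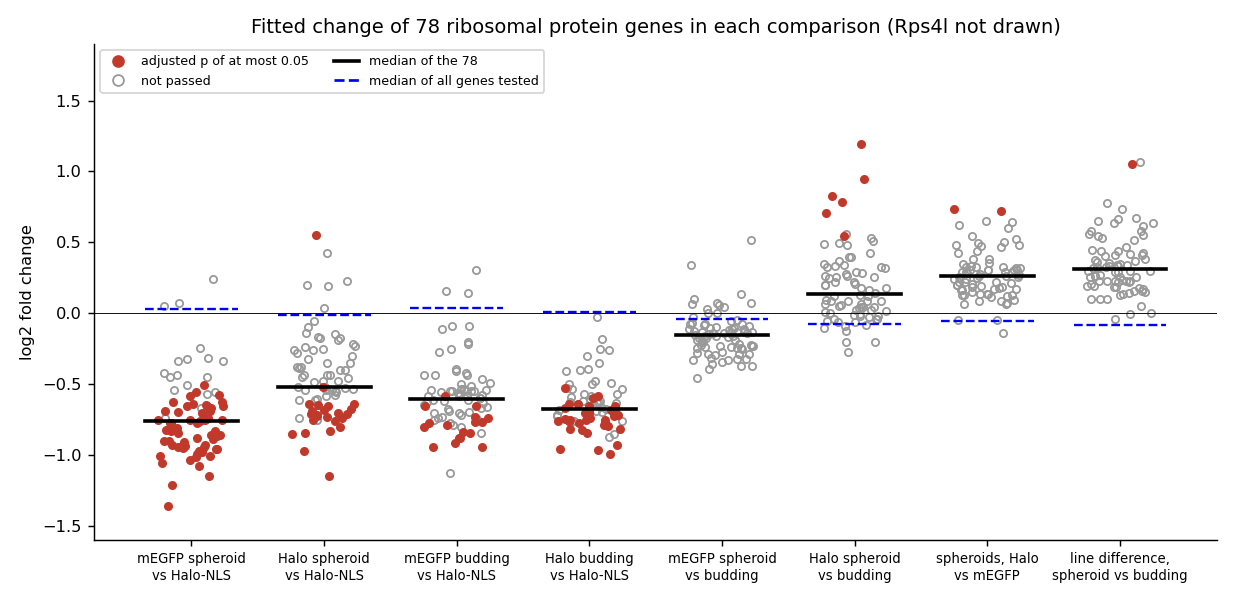
Each point is the fitted log2 fold change of a ribosomal protein gene in a comparison (78 genes, Rps4l not drawn), filled where the adjusted p was at most 0.05. Black lines are the medians of these genes and dashed lines those of all genes tested. The medians lie between −0.76 and −0.52 in the 4 comparisons with Halo-NLS, and no gene passed between SOX9-mEGFP spheroid and budding organoids.

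The medians of the large and the small subunit were close to each other against the controls. In SOX9-mEGFP_spheroid, 34 of 47 large-subunit and 26 of 32 small-subunit genes fell, with medians of −0.75 and −0.77. In SOX9-Halo_spheroid, 14 and 9 fell (medians −0.53 and −0.50), in SOX9-mEGFP_budding 13 and 4 (−0.61 and −0.58), and in SOX9-Halo_budding 22 and 13 (−0.70 and −0.64). With Halo-NLS replicate 3 left out, 16 large-subunit and 16 small-subunit genes fell in SOX9-mEGFP_spheroid, and at most 1 of either in the other conditions. The difference between the subunits was not tested.

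Rps14, a small-subunit protein whose gene is lost in human 5q− syndrome, had the largest fall in spheroids. It was at 2774, 2434 and 4693 CPM in Halo-NLS, at 1295, 1854 and 696 CPM in SOX9-mEGFP_spheroid and at 1625, 1728 and 1110 CPM in SOX9-Halo_spheroid. All 12 SOX9 libraries were below all 3 controls. The log2 fold change was −1.36 ± 0.396 (SE) in SOX9-mEGFP_spheroid (adjusted p = 0.0108) and −1.15 ± 0.394 in SOX9-Halo_spheroid (adjusted p = 0.0258). In budding organoids it was −1.13 for SOX9-mEGFP (adjusted p = 0.0646) and −0.87 for SOX9-Halo (adjusted p = 0.121). Without Halo-NLS replicate 3 the spheroid values for Rps14 were −1.02 (adjusted p = 0.0611) and −0.81 (adjusted p = 0.134).

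Rps27, a zinc-finger protein of the small subunit, was at 1008, 776 and 1381 CPM in Halo-NLS against 488, 581 and 298 CPM in SOX9-mEGFP_spheroid and 607, 572 and 434 CPM in SOX9-Halo_spheroid. Neither spheroid condition overlapped the controls. It fell by 1.21 (log2) in SOX9-mEGFP_spheroid (SE 0.293, adjusted p = 0.00361) and by 0.97 in SOX9-Halo_spheroid (SE 0.292, adjusted p = 0.0129). Without Halo-NLS replicate 3 the change of Rps27 was −0.97 (adjusted p = 0.0205) and −0.73 (adjusted p = 0.0690), respectively.

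Rps2, which lines the mRNA entry channel, was at 2116, 2176 and 3873 CPM in Halo-NLS, and at 1436, 1423 and 1005 CPM in SOX9-mEGFP_spheroid, where it fell by 1.08 (log2; SE 0.243, adjusted p = 0.00222). It also fell in SOX9-Halo_budding (−0.96, adjusted p = 0.0181) and SOX9-mEGFP_budding (−0.94, adjusted p = 0.0237). In SOX9-Halo_spheroid it was at 1843, 2207 and 1812 CPM, which overlapped the controls. Its log2 fold change there was −0.48 (adjusted p = 0.115). Without Halo-NLS replicate 3 the budding values of Rps2 were −0.62 (SOX9-Halo, adjusted p = 0.0810) and −0.60 (SOX9-mEGFP, adjusted p = 0.107).

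Among the proteins of the large subunit, the acidic stalk recruits translation factors. All 3 of its genes, with that of its base, were called lower in 3 of the 4 SOX9 conditions. Rplp1, an acidic stalk protein, was at 4153, 3746 and 6606 CPM in Halo-NLS and at 2368, 2290 and 1869 CPM in SOX9-mEGFP_spheroid. It was at 2341, 2893 and 2465 CPM in SOX9-mEGFP_budding and at 2811, 2881 and 1928 CPM in SOX9-Halo_budding. These 9 libraries were all below the controls, as were the 3 of SOX9-Halo_spheroid (3591, 3534 and 2909 CPM, log2 fold change −0.53, adjusted p = 0.0713). Rplp1 fell by 1.15 (SE 0.234, adjusted p = 0.00105), 0.91 (SE 0.233, adjusted p = 0.0230) and 0.93 (SE 0.233, adjusted p = 0.0175) on the log2 scale, respectively. Its partner Rplp2 and the stalk base Rplp0 fell in the same 3 conditions, Rplp0 by 0.66, 0.66 and 0.72. In SOX9-Halo_spheroid, Rplp2 was at 1182, 1063 and 962 CPM, also below the 1323, 1253 and 1652 CPM of Halo-NLS. Rplp0 was at 1505, 1386 and 1223 CPM in SOX9-Halo_spheroid against 1358, 1419 and 1860 CPM in Halo-NLS. The log2 fold change of Rplp0 there, −0.17, had an adjusted p of 0.456. All 3 stalk genes still fell without Halo-NLS replicate 3 in SOX9-mEGFP_spheroid, by 0.86 (Rplp1, adjusted p = 0.00527), 0.74 (Rplp2, adjusted p = 0.00464) and 0.50 (Rplp0, adjusted p = 0.0407) on the log2 scale. In the budding conditions the values of Rplp1 were then −0.62 and −0.64 (adjusted p = 0.103 and 0.0777) and those of Rplp0 −0.50 and −0.57 (adjusted p = 0.122 and 0.0715), in the order SOX9-mEGFP and SOX9-Halo. Rplp2 passed only in SOX9-Halo_budding (−0.63, adjusted p = 0.0460).

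Rpl41, a very short peptide of the large subunit, was the gene with the largest fall in SOX9-Halo_budding among those that passed (−0.99 ± 0.274, adjusted p = 0.0252). It was at 3157, 2813 and 5356 CPM in Halo-NLS and at 2115, 2117 and 1464 CPM in SOX9-Halo_budding, without overlap. The value of Rpl41 there was −0.65 without Halo-NLS replicate 3 (adjusted p = 0.122). Rps6, the substrate of S6 kinase downstream of mTORC1, was at 1644, 1580 and 2227 CPM in Halo-NLS and at 1263, 1341 and 824 CPM in SOX9-mEGFP_spheroid, where it fell by 0.67 (log2; SE 0.227, adjusted p = 0.0243). In the other 3 conditions its log2 fold change was −0.54 each, with adjusted p of 0.0632 to 0.111. Without Halo-NLS replicate 3 the fall of Rps6 in SOX9-mEGFP_spheroid was 0.50 on the log2 scale (adjusted p = 0.108).

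The genes at the other end of the distribution were close to the controls. Rps4x, the X-linked small-subunit protein, was at 2309, 1655 and 2016 CPM in Halo-NLS and at 1674, 1740 and 1321 CPM in SOX9-mEGFP_spheroid, with overlap. Its log2 fold change against Halo-NLS ranged from −0.34 to −0.09 over the 4 conditions, with adjusted p of 0.164 to 0.767. Rpl7 was at 1377, 783 and 925 CPM in Halo-NLS and at 1265, 1503 and 868 CPM in SOX9-mEGFP_spheroid (log2 fold change 0.24, adjusted p = 0.423). Rpl5 and Rpl11, which escort 5S rRNA and bind Mdm2 when assembly is disturbed, were also measured, with Rpl11 at −0.86 (adjusted p = 0.0172) and Rpl5 at −0.45 (adjusted p = 0.209) in SOX9-mEGFP_spheroid. The value of Rpl11 was −0.56 without Halo-NLS replicate 3 (adjusted p = 0.107), and the difference between Rpl5 and Rpl11 was not tested.

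Genes commonly used as internal standards were among those that moved. In addition to Rplp0, Rps18 fell in SOX9-mEGFP_spheroid by 0.56 (log2; SE 0.191, adjusted p = 0.0250), from 141, 134 and 134 CPM in Halo-NLS to 98.2, 100.05 and 79.2 CPM. The value of Rps18 was −0.26 with the GC trend removed (adjusted p = 0.298) and −0.30 when scaled by library size alone (adjusted p = 0.234). Scaled to the sum of the ribosomal protein genes, the values of Rps18 and Rplp0 were 0.14 and 0.10. That scaling sets the family as a whole near 0 and moves every gene alike.

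To see which genes departed from the family, each library was rescaled to the sum of its ribosomal protein counts, a choice made after seeing the data. The number called lower against Halo-NLS was then 1, 2, 0 and 0, in the order SOX9-mEGFP_spheroid, SOX9-Halo_spheroid, SOX9-mEGFP_budding and SOX9-Halo_budding (background 8.88, 16.2, 0.774 and 0.814%). These were Rps27 in both spheroid conditions and Rps14 in SOX9-Halo_spheroid. The number called higher was 5, 6, 3 and 1 (background 41.6, 28.5, 20 and 28.1%). The 1 in SOX9-Halo_budding was Rps4l, which passed the filter on low counts through that condition alone and is not read as a departure. Rpl7, Rpl30 and Rpl37 were called higher within the family in both spheroid conditions and in SOX9-mEGFP_budding. Rpl3 and Rpl4 joined them in SOX9-mEGFP_spheroid, and Rpl13, Rpl13a and Rps27l in SOX9-Halo_spheroid. This rescaling kept the GC trend, and it was not repeated with that trend removed or without Halo-NLS replicate 3. With TMM scaling and the GC trend removed, the values of Rpl37 against Halo-NLS changed sign in both spheroid conditions.

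**Figure D3:**
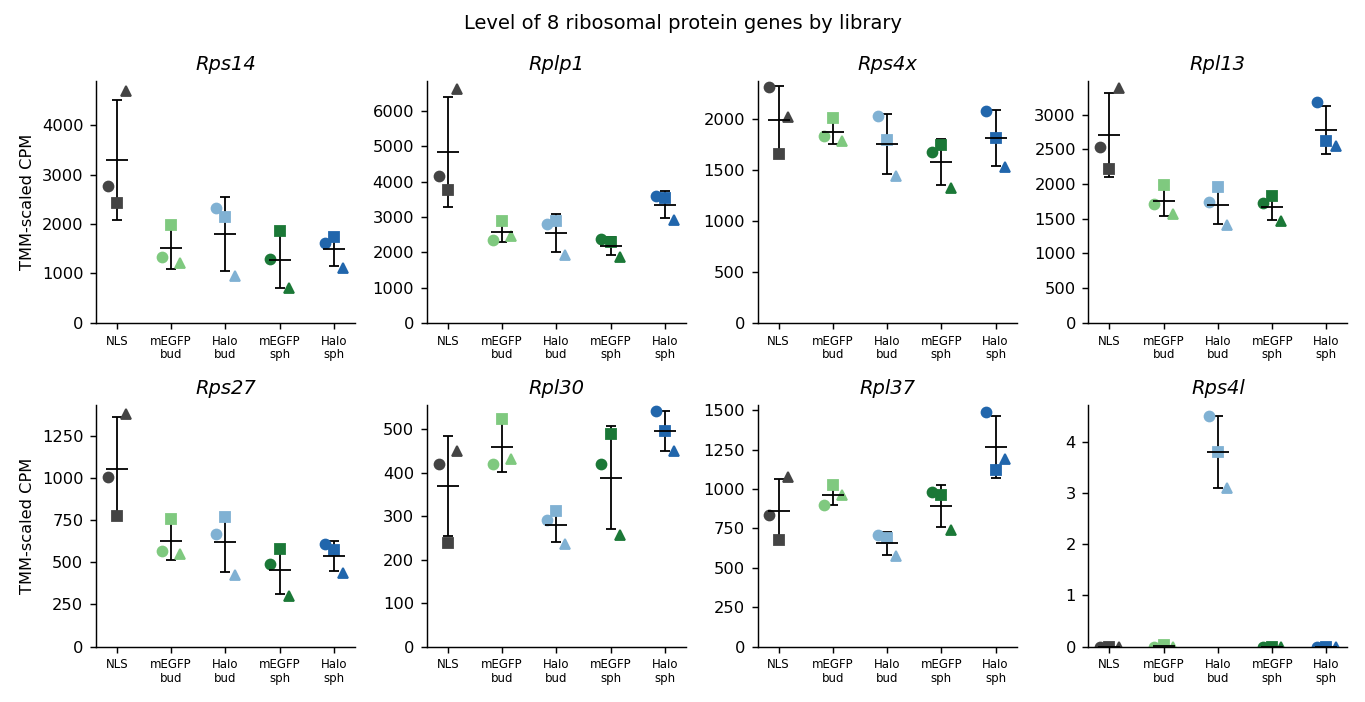
TMM-scaled CPM of 8 ribosomal protein genes in each library, with symbols for replicates as in the plot of shares and bars for mean ± SD of 3. Rps14, Rps27 and Rplp1 are highest in Halo-NLS replicate 3, Rps4x overlaps between Halo-NLS and each SOX9 condition, Rpl13, Rpl30 and Rpl37 are higher in SOX9-Halo_spheroid than in SOX9-Halo_budding, and Rps4l is at 3.11 to 4.504 CPM in SOX9-Halo_budding and at or near 0 elsewhere.

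Within each line, spheroids were compared with budding organoids that carried the same SOX9 transgene. Sox9 was at 39.8, 314 and 204 CPM in SOX9-Halo_budding and at 314, 442 and 441 CPM in SOX9-Halo_spheroid. It was at 339, 330 and 193 CPM in SOX9-mEGFP_budding and at 260, 504 and 705 CPM in SOX9-mEGFP_spheroid. Spheroid morphology, time in culture, the second transgene and the Sox9 level therefore cannot be told apart here. In the SOX9-mEGFP line 0 of 79 genes were called in either direction, also at an unadjusted p of 0.05 and by DESeq2, where 14.5% of all genes were higher and 13.8% lower. The median was −0.16, and 0 genes lay above and 10 below without overlap (23.9 and 22.1% of all genes). In the SOX9-Halo line 6 genes rose and 1, Rps4l, was called lower (background 18% higher, 22.9% lower) with a median of 0.13, and 18 lay above and 1 below without overlap (24.6 and 28.2%). None of the 79 genes separated all 6 spheroid from all 9 other libraries, whereas 9.51% of all genes were higher and 9.83% lower.

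The 6 genes that rose in SOX9-Halo spheroids were Rpl13a, Rpl37, Rpl30, Rps27l, Rpl13 and Rplp0. Rpl13a, known for a role outside the ribosome in interferon-induced translational silencing, was at 60.4, 52.5 and 58.9 CPM in SOX9-Halo_budding and at 132, 138 and 124 CPM in SOX9-Halo_spheroid. The conditions did not overlap, and the rise was 2.29-fold (log2 fold change 1.19 ± 0.250, adjusted p = 0.00124). In the SOX9-mEGFP line Rpl13a was at 44.2, 65.9 and 77.7 CPM in budding and at 98.6, 106 and 64.3 CPM in spheroid organoids, which overlapped. The log2 fold change was 0.52 ± 0.247 (adjusted p = 0.142), and the difference between the lines, 0.67 ± 0.349, had an adjusted p of 0.267.

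Rps27l, a paralog of Rps27 that p53 induces, was at 189, 172 and 161 CPM in SOX9-Halo_budding and at 287, 322 and 291 CPM in SOX9-Halo_spheroid. It rose by 0.79 ± 0.248 (log2, adjusted p = 0.0192). The conditions did not overlap. Without SOX9-Halo_spheroid replicate 2 or 3, the adjusted p of Rps27l was 0.0790 or 0.0550. Rps27 itself was at −0.20 ± 0.289 in the same comparison (adjusted p = 0.621), so the paralogs had values of opposite sign, a difference that was not tested. Rplp0 rose by 0.55 ± 0.183 (adjusted p = 0.0257) and did not pass in 4 of the 6 fits that left out a library of either condition, where its adjusted p was 0.0609 to 0.0911.

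Rpl30 is the gene whose promoter drives the transgenes. It was at 291, 312 and 235 CPM in SOX9-Halo_budding and at 541, 496 and 451 CPM in SOX9-Halo_spheroid (log2 fold change 0.83 ± 0.260, adjusted p = 0.0188), without overlap. In the SOX9-mEGFP line it was at 420, 523 and 432 CPM in budding and at 420, 489 and 257 CPM in spheroid organoids, with overlap. The difference between the lines was 1.06 ± 0.367 (adjusted p = 0.0742). The rise of Rpl30 in SOX9-Halo spheroids no longer passed without SOX9-Halo_budding replicate 3, SOX9-Halo_spheroid replicate 1 or SOX9-Halo_spheroid replicate 2 (adjusted p of 0.0558 to 0.0608).

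Rpl37, a zinc-binding protein of the large subunit, was the gene whose change from budding to spheroid organoids differed between the lines. It was at 711, 686 and 573 CPM in SOX9-Halo_budding and at 1490, 1122 and 1188 CPM in SOX9-Halo_spheroid, without overlap. In the SOX9-mEGFP line it was at 901, 1026 and 963 CPM in budding and at 984, 960 and 742 CPM in spheroid organoids, with overlap. The log2 fold changes were 0.95 ± 0.201 (adjusted p = 0.00137) and −0.11 ± 0.199 (adjusted p = 0.764), and their difference was 1.05 ± 0.283 (adjusted p = 0.0220). It was 1 of 79 genes called in this test of the difference, where 3.71% of all genes were higher and 9.05% lower. Without SOX9-Halo_spheroid replicate 1, SOX9-mEGFP_budding replicate 2 or SOX9-mEGFP_spheroid replicate 3, the adjusted p of the difference for Rpl37 was 0.0560 to 0.0617. With the GC trend removed, the difference for Rpl37 was 1.12 (adjusted p = 0.0726).

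Rpl37 was also the gene that rose in SOX9-Halo_spheroid against Halo-NLS, where it was at 837, 677 and 1075 CPM. The log2 fold change was 0.55 ± 0.200 (adjusted p = 0.0327), but −0.08 with the GC trend removed and −0.38 with GC and length trends removed. The call was also lost with only the compared groups fitted (0.51, adjusted p = 0.121) and without Halo-NLS replicate 1 or 2 or SOX9-Halo_spheroid replicate 1 or 3 (adjusted p = 0.0571 to 0.128). The canonical transcript of Rpl37 is 6111 bases long with 43.5% GC, whereas its coding sequence has 55.0% GC. The reads that the count rests on were not located along the transcript.

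Between the spheroids of the 2 lines, 2 of 79 genes, Rpl13 among them, were higher in SOX9-Halo and 0 were lower (background 8.26% higher, 15.7% lower). None was lower at an unadjusted p of 0.05 or by DESeq2. The median was 0.26, and 23 genes lay above and 0 below without overlap (20.6 and 28% of all genes). Rpl13 was at 3174, 2617 and 2550 CPM in SOX9-Halo_spheroid and at 1733, 1825 and 1463 CPM in SOX9-mEGFP_spheroid (log2 fold change 0.73 ± 0.202, adjusted p = 0.0153). Rpl13 was higher in each SOX9-Halo than in each SOX9-mEGFP spheroid library. The number of genes called higher was 0 or 1 without any 1 of the 6 libraries, and the call of Rpl13 was lost without SOX9-Halo_spheroid replicate 1 or SOX9-mEGFP_spheroid replicate 3 (adjusted p = 0.0595 and 0.0641). With the GC trend removed, the value of Rpl13 was 0.53 between the spheroids (adjusted p = 0.0738) and 0.53 between SOX9-Halo spheroid and budding organoids (adjusted p = 0.0550).

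Rpl13 (chr8:123829069-123831992, GRCm39) lies on chromosome 8, whose genes had a higher median in SOX9-Halo spheroids. The 972 genes tested on chromosome 8 had a median deviation from their mean over all libraries of 0.30, 0.35 and 0.32 (log2) in SOX9-Halo_spheroid and of −0.16 to 0.11 in the other 12 libraries. Their median log2 fold change was 0.41 against SOX9-Halo_budding and 0.47 against SOX9-mEGFP_spheroid, and 0.33 and 0.41 with the GC trend removed. Over the 16 chromosomes other than 8, 15, 18 and 19 the medians were −0.24 to 0.00 and −0.19 to 0.01. Chromosome 19, which holds none of the tested genes taken by symbol, had medians of 0.46 and 0.56, and chromosome 18 had −0.08 and −0.60. The part of chromosome 8 in the values of Rpl13 was not tested.

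Rpl3, Rpl8, Rpl30 and Rpl37 lie on chromosome 15, whose 741 tested genes deviated by 0.26 to 0.28 in all 6 SOX9-mEGFP libraries and by −0.24 to −0.03 in the other 9. Against Halo-NLS the median of chromosome 15 was 0.37 in SOX9-mEGFP_budding and 0.36 in SOX9-mEGFP_spheroid. In SOX9-mEGFP_budding the log2 fold changes of Rpl3, Rpl8, Rpl30 and Rpl37 were −0.40, −0.22, 0.31 and 0.16, and all 4 lay above the family median of −0.60. Between SOX9-Halo spheroid and budding organoids the median of chromosome 15 was −0.00. The range over the 16 chromosomes other than 8, 15, 18 and 19 was −0.24 to 0.00. The 4 members on chromosome 15 had log2 fold changes of 0.12 to 0.95 there, with a median of 0.54 against 0.13 for the family. The part of chromosome 15 in the rises of Rpl30 and Rpl37 was not tested. Without the members on chromosomes 8 and 15, 57, 22, 16 and 32 of 72 genes fell against Halo-NLS, in the order used above, and 3 rose in SOX9-Halo spheroids against budding organoids, with Rps4l left out as well. Of these 72, 0 were called between the spheroids of the lines, against 2 with all members, and 0 in the test of the difference between the lines, against 1.

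Since the libraries differ in how their counts depend on GC content, the ribosomal protein genes were set against that trend. Over all genes tested, the fitted deviation of genes of 40% GC from their mean over all libraries was −1.22 (log2) in Halo-NLS replicate 2, −0.78 in Halo-NLS replicate 3 and −0.67 in SOX9-Halo_budding replicate 2, and 0.55 and 0.58 in SOX9-Halo_budding replicates 1 and 3. The ribosomal protein genes have a median transcript GC of 50.7% against 50.2% for all genes. The median of the trend over these genes was −0.02 to 0.05 in every library, whereas at single genes it ran from −1.14 at Rps20 to 0.55 at Rps10 in Halo-NLS replicate 2 and from −0.78 to 0.45 in replicate 3. Their own median deviation was 0.42, 0.20 and 0.87 in Halo-NLS replicates 1, 2 and 3, −0.45 in SOX9-Halo_budding replicate 3 and −0.63 in SOX9-mEGFP_spheroid replicate 3. Each trend was centred on its median over all genes, and the family's median GC is close to theirs. Its median trend therefore lay near the centre by construction. The part of GC content in these deviations was not tested by setting them against it.

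With the GC trend removed from every gene, 54, 25, 18 and 26 ribosomal protein genes fell against Halo-NLS in SOX9-mEGFP_spheroid, SOX9-Halo_spheroid, SOX9-mEGFP_budding and SOX9-Halo_budding (23.6, 26.7, 4.36 and 5.27% of all genes). Transcript length moved the counts further. The canonical transcripts of the ribosomal protein genes have a median of 1096 bases against 2684 for all genes, and the trend on GC and length together stood at 0.35 for them in Halo-NLS replicate 3 and −0.15 in SOX9-mEGFP_spheroid replicate 3. With both trends removed, 37, 12, 14 and 23 genes fell (23.6, 26.3, 4.85 and 5.85% of all genes), with medians of −0.49, −0.17, −0.42 and −0.45.

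**Figure D4:**
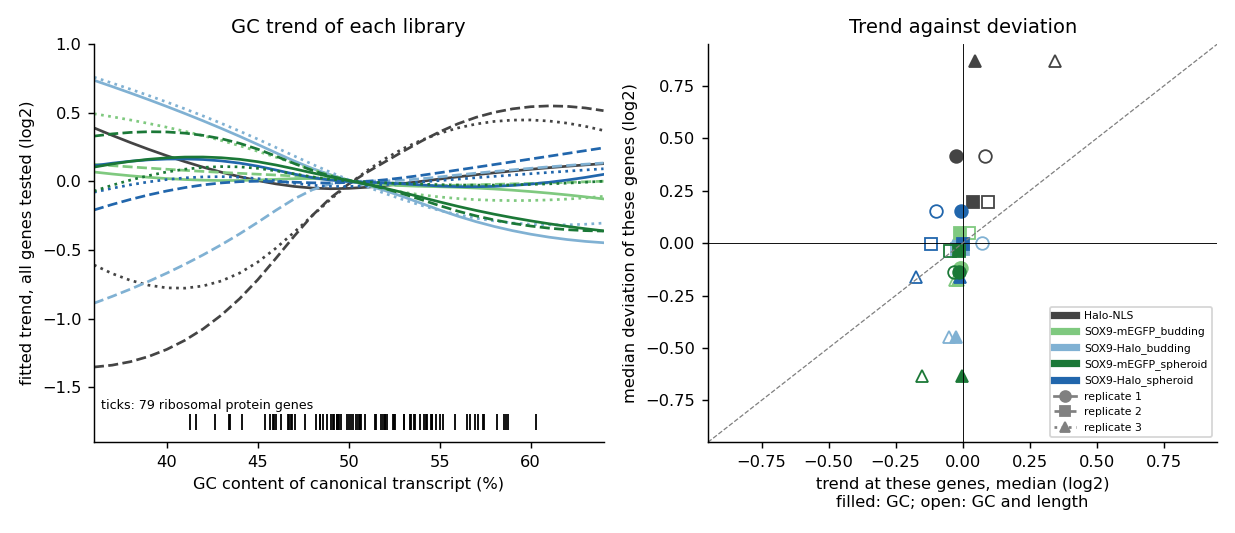
The left panel draws each library's fitted deviation (log2) over all genes tested against the GC content (%) of the canonical transcript, with ticks at the 79 ribosomal protein genes. The right panel sets the median deviation of these genes (log2) against the median of the trend over them, filled for GC and open for GC and length, with a dashed line of equality. The curves cross near 50% GC, and filled points lie within 0.05 of 0 on the horizontal axis while Halo-NLS replicate 3 is at 0.87 on the vertical axis.

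Within the family, lower fold changes in budding organoids went with higher GC content in the fit without trend removal. These correlations were not computed with the GC trend removed. Over 78 genes, Spearman's correlation between the log2 fold change against Halo-NLS and transcript GC was −0.39 in SOX9-mEGFP_budding and −0.45 in SOX9-Halo_budding, and −0.17 and −0.08 in SOX9-mEGFP_spheroid and SOX9-Halo_spheroid. The genes share the same libraries, and the 4 values share the controls. The rank correlation with the number of near copies or with the annotated overlap was between −0.09 and 0.13 in the 4 comparisons.

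Paralogs expressed in particular tissues were almost absent. Rpl3l, the striated-muscle paralog of Rpl3, had 0 to 2 counts in a library. Rpl10l and Rpl39l, which are known from the testis, had 1 count each, both in Halo-NLS replicate 3, and Rpl32l had 0 counts in all libraries. A count of 0 allows up to 3 counts, or 0.117 CPM in the shallowest case, a limit that covers counting error only. Their partners Rpl3, Rpl10 and Rpl39 were at 2350, 1883 and 1162 CPM in Halo-NLS replicate 1.

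Rps4l, an intronless autosomal paralog of Rps4x (chr6:148256098-148257431, plus strand, GRCm39), was counted in SOX9-Halo_budding only, apart from 1 count in SOX9-mEGFP_budding replicate 2. The 3 SOX9-Halo_budding libraries had 190, 131 and 107 counts, or 4.504, 3.80 and 3.11 CPM, and the SOX9-Halo_spheroid libraries, from the same line, had 0. With a floor of 3 counts per library, its mean level was at least 34.4-fold higher than in Halo-NLS, at least 42.1-fold higher than in SOX9-Halo_spheroid and at least 44.9-fold higher than in SOX9-mEGFP_spheroid. Rps4l passed the filter on low counts through SOX9-Halo_budding alone, so its calls, higher against Halo-NLS and lower in SOX9-Halo spheroids, are given as a description and no test is drawn from them. No near copy of its coding sequence was found elsewhere by the criterion for near copies given below. Whether reads from Rps4x were counted at Rps4l was not tested. Rps4x itself was at 2029, 1797 and 1441 CPM in SOX9-Halo_budding.

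Levels were compared between genes per kilobase of coding sequence, averaged over the 15 libraries. Rpl41 was the highest at 17831 CPM per kb, and Rplp1 (9042), Rpl28 (5027) and Rps28 (4592) were among the 5 highest. The proteins they encode are needed in equal number (the stalk proteins in pairs), yet the counted levels spanned several orders of magnitude. Rpl24 was at 1.05, Rps10 at 14.5, Rpl13a at 149 and Rps18 at 239 CPM per kb.

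These low values moved with annotated overlap. The exons of other annotated genes cover 81.5% of the canonical transcript of Rpl24, 74.3% of Rps10, 71.6% of Rps18 and 59.3% of Rpl13a, and a read that lies in 2 genes was set aside as ambiguous in the authors' counting (9.65 to 13.6% of reads). The 12 genes covered over more than 50% had a median of 887 CPM per kb. The other 65 genes, Rps4l and Rpl6l left out, had a median of 2438. The fold changes of Rpl13a, Rps18, Rpl30 (50.2% covered) and Rplp0 (43.7%) therefore rest on the uncovered part of each transcript. In addition, 74 of the 83 genes have at least 1 near copy elsewhere (95% identity over 60% of the coding sequence), and reads that aligned equally well to a copy were not counted, so levels of single genes are uncertain.

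**Figure D5:**
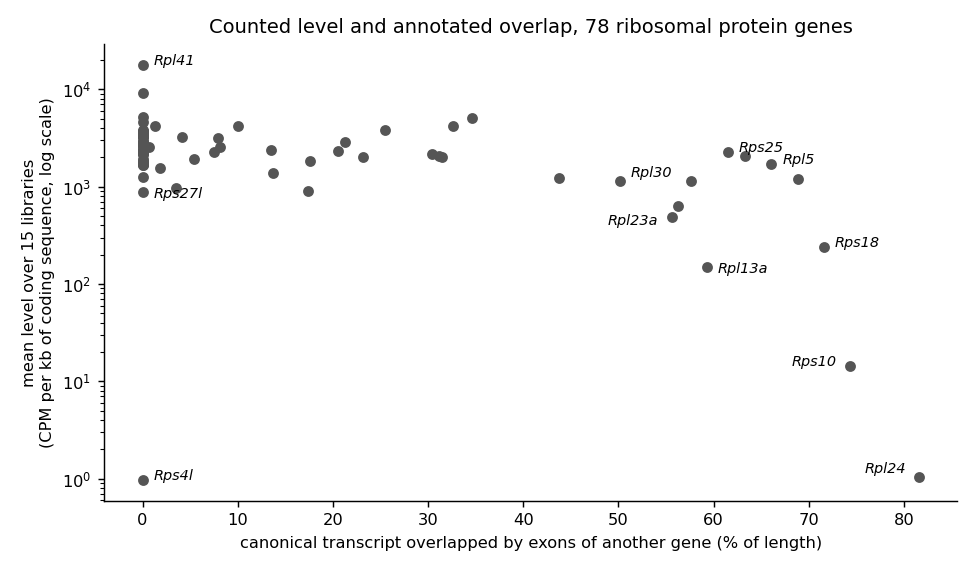
Each point is a ribosomal protein gene (78 with a coding sequence), with the percent of its canonical transcript covered by exons of another gene on the horizontal axis and its mean level over 15 libraries (CPM per kb of coding sequence, log scale) on the vertical axis. The lowest levels other than Rps4l belong to genes covered over more than 50%, down to 1.05 for Rpl24 at 81.5%.

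The TOP tract was searched at the annotated start of each canonical transcript, as a C followed by at least 4 pyrimidines, on the strand of the gene. It lay exactly at the start in 7 of 79 genes (8.86%, against 3.95% of 13210 protein-coding genes tested) and within 10 bases of it in 38.0% (against 32.9%). They include Rps2, Rps16, Rps27l, Rpl15, Rpl22 and Rpl35a. Windows from 10 bases before to 20 bases from the start are shown for 4 of these genes, to show what a tract at the start looks like, and for Rpl13, Rps18 and Rps4l, whose values are discussed above, with the longest pyrimidine run near the start in capitals. In Rps2, Rpl15, Rpl22 and Rpl35a the run crosses the start, in Rpl13 and Rps18 it begins after it, and Rps4l has a short run before it (all GRCm39).
Rps2 (chr17:24939072-24939101, plus strand): cggcgCCTCCCTCTTCTTCTTCTTCgggag
Rpl15 (chr14:4198703-4198732, plus strand): aagCCTTCTTCCTTTCCTCTggcggcagcc
Rpl22 (chr4:152410140-152410169, plus strand): ctgaCTCCTCCCTTTCCCgacagccgactt
Rpl35a (chr16:32876635-32876664, plus strand): acgattttgCCTTTCCTTgttcctaaataa
Rpl13 (chr8:123829062-123829091, plus strand): gcgtgacgtcaCTTCCCTTTCgcctgattt
Rps18 (chr17:34174632-34174661, minus strand): agacttatacgtcacttccgCTCTCTCTTC
Rps4l (chr6:148256088-148256117, plus strand): gaagTCCCgcctactggaaaggacccggat

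The length of the pyrimidine run from the annotated start did not order the changes. Spearman's correlation with the log2 fold change over 78 genes was −0.13 to −0.04 in the 4 comparisons with Halo-NLS. The annotated start is that of the canonical transcript and was not measured in these libraries.

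Other components of the translation machinery were taken from lists of known function. Their genes were not set against the medians of their chromosomes, and the part of these in the values below was not tested. Against Halo-NLS, chromosomes 8, 15, 18 and 19 had medians of −0.18, 0.36, 0.81 and −0.79 in SOX9-mEGFP_spheroid. In SOX9-Halo_spheroid the medians of these chromosomes were 0.32, −0.08, 0.19 and −0.06. Of 7 further ribosomal protein genes outside the symbol rule, 3 fell in SOX9-mEGFP_spheroid and 2 in SOX9-Halo_spheroid, and 0 rose. For every list that follows, the background is 25.7% of all genes higher and 23.9% lower in SOX9-mEGFP_spheroid and 22.5% higher and 25.7% lower in SOX9-Halo_spheroid. Of these 7, 2 and 1 fell without Halo-NLS replicate 3. Fau, which encodes the small-subunit protein eS30 fused to a ubiquitin-like domain, fell by 1.58 and 0.99 on the log2 scale. Rps27rt, a retrotransposed copy of Rps27, fell by 1.34 and 1.13 on the log2 scale.

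Nuclear genes for mitochondrial ribosomal proteins also had mostly lower fitted levels. Of 78, 56 fell and 1 rose in SOX9-mEGFP_spheroid, 35 fell and 2 rose in SOX9-Halo_spheroid, and 18 and 20 fell in SOX9-mEGFP_budding and SOX9-Halo_budding (5.95 and 7.57% of all genes). The numbers that fell without Halo-NLS replicate 3 were 49, 21, 0 and 5, in that order. With all libraries, their medians were −0.70, −0.46, −0.44 and −0.43. Between SOX9-mEGFP spheroids and budding organoids 18 of these mitochondrial genes fell (13.8% of all genes), and 0 of the 79 cytoplasmic genes did. Mrps28 fell by 1.64 and 1.35 on the log2 scale in SOX9-mEGFP_spheroid and SOX9-Halo_spheroid.

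Genes that assemble ribosomes rather than form them were more often higher than lower in SOX9-Halo spheroids. Of 77 ribosome biogenesis factors, 33 rose and 5 fell in SOX9-Halo_spheroid against Halo-NLS, with a median of 0.58. In SOX9-mEGFP_spheroid 13 biogenesis factors rose and 15 fell (median 0.08), both below the background shares. Leaving out Halo-NLS replicate 3, 25 rose and 2 fell in SOX9-Halo_spheroid, and 10 rose and 7 fell in SOX9-mEGFP_spheroid. Nolc1, a nucleolar phosphoprotein, rose by 1.36 and the small-subunit processome component Utp20 by 2.33 in SOX9-Halo_spheroid, while Tbl3, of the same processome, fell by 1.01 on the log2 scale. Against budding organoids of the same line 18 factors rose and 0 fell in SOX9-Halo spheroids (18% of all genes higher), and 2 rose and 0 fell in SOX9-mEGFP spheroids (14.5% higher).

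RNA polymerase I genes, which transcribe the rRNA precursor, were called no more often than genes at large, with 3 of 15 higher and 3 lower in SOX9-mEGFP_spheroid and 3 higher and 1 lower in SOX9-Halo_spheroid. Taf1b, a subunit of its promoter selectivity factor, rose by 1.56 and 2.34. Of 18 other genes with TOP mRNAs, 2 rose and 4 fell in SOX9-mEGFP_spheroid and 3 rose and 2 fell in SOX9-Halo_spheroid. The elongation factor subunit Eef1g fell by 1.58 and 0.64 on the log2 scale in these conditions, and the poly(A)-binding protein gene Pabpc1 rose by 1.37 in SOX9-Halo_spheroid. Of 26 translation initiation factor genes, 3 rose and 6 fell in SOX9-mEGFP_spheroid and 5 rose and 0 fell in SOX9-Halo_spheroid, again at or below the background. When Halo-NLS replicate 3 was left out, in SOX9-mEGFP_spheroid 3 polymerase genes rose and 2 fell, 0 and 3 of the other TOP genes did, and 1 and 1 of the initiation factors. In SOX9-Halo_spheroid the counts were then 4 and 0, 3 and 1, and 3 and 0.

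Of 5 tested chaperones dedicated to single ribosomal proteins, 3 fell and 0 rose in SOX9-mEGFP_spheroid and 1 rose and 1 fell in SOX9-Halo_spheroid, where Heatr3, which escorts Rpl5 to the nucleus, rose by 1.36. Among 17 growth regulators, 2 rose and 4 fell in SOX9-mEGFP_spheroid and 3 rose and 2 fell in SOX9-Halo_spheroid. Without Halo-NLS replicate 3, 1 chaperone fell in SOX9-mEGFP_spheroid and 1 rose and 1 fell in SOX9-Halo_spheroid, and 2 growth regulators rose and 4 fell in SOX9-mEGFP_spheroid and 2 rose and 1 fell in SOX9-Halo_spheroid. Myc rose by 1.23 (log2) in SOX9-mEGFP_spheroid. It was at 54.5, 70.2 and 50.3 CPM in Halo-NLS and at 98.3, 116 and 197 CPM in SOX9-mEGFP_spheroid. In SOX9-Halo_spheroid Myc was at 87.1, 93.8 and 130 CPM, also above every control. Mycl fell by 2.00 and 2.23 on the log2 scale in SOX9-mEGFP and SOX9-Halo spheroids. Mycn differed between the spheroids of the lines by 5.76 (adjusted p = 7.36e-05), with log2 fold changes of −3.28 in SOX9-mEGFP_spheroid and 2.48 in SOX9-Halo_spheroid against Halo-NLS. Its levels were low, at 1.65 to 2.80 CPM in Halo-NLS, 0.170 to 0.298 CPM in SOX9-mEGFP_spheroid and 10.8 to 16.3 CPM in SOX9-Halo_spheroid. In budding organoids Mycn was at 10.1, 12.6 and 3.23 CPM (SOX9-Halo) and 7.89, 4.89 and 0.673 CPM (SOX9-mEGFP). Eif4ebp1, the translational repressor that mTORC1 inactivates, rose by 1.41 in SOX9-Halo and by 1.02 in SOX9-mEGFP spheroids against budding organoids. It was at 33.7 to 72.5 CPM in the budding SOX9 libraries and at 99.1, 107 and 137 CPM in Halo-NLS. The spheroids, at 182, 105 and 101 CPM (SOX9-Halo) and 122, 136 and 144 CPM (SOX9-mEGFP), overlapped Halo-NLS.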

How the data were processed

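Poly(A) RNA-seq libraries of 5 organoid conditions (3 each) were analysed from the deposited read counts per gene. The authors trimmed reads with cutadapt 4.5, aligned them with STAR, retained only reads with a unique alignment and, ignoring strand, obtained gene counts with HTSeq 2.0.2 in union mode on an Ensembl GRCm39 annotation. Reads in no gene (1.83 to 6.09% of a library) and ambiguous reads (9.65 to 13.6%) were not used. A table of normalised counts and the tables of fold changes and p-values that the authors made with DESeq2 were not used.

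Counts were scaled by TMM, filtered with filterByExpr and fitted with edgeR 4.0.16 (R 4.3.3; robust quasi-likelihood test, all 15 libraries, a coefficient per condition) over 17560 genes. Genes with a Benjamini-Hochberg adjusted p of at most 0.05 over all genes tested were called, and values with ± are log2 fold changes with SE. The code was tested on simulated data. The common biological coefficient of variation was 0.302, and replicates correlated with r of 0.960 to 0.994 (log2 CPM). Transcript lengths, GC content, overlaps and starts are those of canonical transcripts in GENCODE on GRCm39, and GC and length trends were fitted per library with natural splines (df 5).

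Alternatives were DESeq2 1.42.0, its size factors, no scaling, no filter, removal of GC or GC and length trends, only the compared groups, a replicate block, the thresholds of the study (adjusted p of 0.01, 2-fold, mean count of 10) and leaving out each library. Of 10 pairs of conditions, same-numbered libraries deviated together (r over 0.1 for all 3 numbers) only for SOX9-Halo_budding and SOX9-Halo_spheroid (r = 0.28, 0.16 and 0.24). The labels do not say that numbers mark a shared day or batch.

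The ribosomal protein genes and all lists were chosen with earlier results of these data known. Genes were named if they had the 3 largest rises or falls among those called in a comparison, were paralogs or their partners, common reference genes, Rpl30, Rps6, Rpl5, Rpl11 or Rpl22, were among the 5 highest or lowest per kb, or led a list. Rpl7, Rpl8, Rpl4, Rplp2 and the examples from further lists beyond that were named after their values were seen. A few genes that meet this rule are not reported here.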

Additional observations from a re-analysis of the deposited data

Results flagged for a closer look

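The change of Rpl37 from budding to spheroid organoids differed between the SOX9-Halo and SOX9-mEGFP lines. The difference was 1.05 on the log2 scale in the test of the difference itself (SE 0.283, adjusted p = 0.0220). The difference was 1.12 with the GC trend removed (adjusted p = 0.0726) and 1.19 with GC and length trends removed (adjusted p = 0.0688).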

How the results depend on the processing

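Numbers of ribosomal protein genes called against Halo-NLS depended on the processing, and the cause was not tested. The alternatives scaled to the sum of these genes and with the GC trend of the coding sequence removed were chosen after seeing the data. Genes lower in SOX9-mEGFP_spheroid (60) numbered 37 with GC and length trends removed, 35 with library sizes alone, 1 scaled to the sum of these genes (5 higher), 6 at the thresholds of the study and 32 to 63 leaving out a library. Genes lower in SOX9-Halo_spheroid (23) numbered 12, 3, 2 (6 higher), 0 and 2 to 43 in the same order, and 36 with the coding GC trend removed. The 1 gene higher there became 3 with GC and length trends removed, 0 with the GC trend removed, 2 with library sizes alone, 0 with only the groups compared, 0 at the thresholds of the study and 0 to 1 leaving out a library. Genes lower in SOX9-mEGFP_budding (17) numbered 42 by DESeq2, 27 with the coding GC trend removed, 2 with library sizes alone, 0 with only the groups compared, 0 scaled to the sum of these genes (3 higher), 0 at the thresholds of the study and 0 to 32 leaving out a library. Genes lower in SOX9-Halo_budding (35) numbered 53 by DESeq2, 23 with GC and length trends removed, 2 with library sizes alone, 20 without the filter, 0 with only the groups compared, scaled to the sum of these genes or at the thresholds of the study, and 0 to 39 leaving out a library. Genes higher in SOX9-Halo spheroids than budding organoids (6) numbered 17 with GC and length trends removed, 1 at the thresholds of the study and 3 to 8 leaving out a library, and 1 was higher in SOX9-mEGFP spheroids with GC and length trends removed. Genes higher in SOX9-Halo than SOX9-mEGFP spheroids (2) numbered 8 by DESeq2, 9 with GC and length trends removed, 6 with library sizes alone, 12 with only the groups compared, 0 scaled to the sum of these genes, 0 at the thresholds of the study and 0 to 1 leaving out a library. Genes with a larger spheroid change in SOX9-Halo (1) numbered 3 by DESeq2 (1 smaller), 2 with GC and length trends removed, 2 without the filter, 2 with only the groups compared, 0 with the GC trend removed, scaled to the sum of these genes or at the thresholds of the study, and 0 to 1 leaving out a library. With the 100 most counted other genes left out of the total, the mean share was 14.9% in Halo-NLS, 11.2% in SOX9-Halo_budding, 12.3% in SOX9-Halo_spheroid, 11.3% in SOX9-mEGFP_budding and 10.1% in SOX9-mEGFP_spheroid. Values that changed sign were those of Rpl37 in SOX9-Halo_spheroid (−0.38 with GC and length, −0.076 with the GC trend removed) and SOX9-mEGFP_spheroid (−1.07 and −0.71), Rpl13 in SOX9-mEGFP_spheroid (0.0053 with GC and length trends removed) and Rpl30 there (−0.89 with the coding GC trend removed). Scaled to the sum of these genes, Rpl13 (0.066), Rpl28 (0.027), Rpl3 (0.40), Rpl6l (0.11), Rplp0 (0.10), Rps18 (0.14), Rps28 (0.10) and Rps6 (0.055) changed sign in SOX9-mEGFP_spheroid, as did the medians of the difference between lines (−0.038) and between their spheroids (−0.014). With a replicate block, 61, 26, 23 and 40 genes were lower in SOX9-mEGFP_spheroid, SOX9-Halo_spheroid, SOX9-mEGFP_budding and SOX9-Halo_budding, and within the SOX9-Halo line 6 were higher and 1 lower. Depth limits the paralogs with 0 to 2 counts.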
